A study of Mus musculus with 13 samples.

Results

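Metaphase II (MII) eggs of mice lacking the long noncoding RNA Sirena1 were compared with wild-type (WT) MII eggs across all genes of the deposited count table. The comparison holds 7 of the 13 libraries of the series, 4 of knockout eggs (Null) and 3 of WT eggs, chosen by stage and genotype in the labels. The other 6 libraries are fully grown germinal vesicle (GV) oocytes, 3 Null and 3 WT, which served for estimating the spread and for setting the stages side by side. Each library was made from a pool of 25 cells, and nothing in the labels says whether pools came from separate females, so p-values measure the spread between pools. Null animals were homozygous for a Cas9-mediated deletion of the Sirena1 promoter, made in C57Bl/6 zygotes with 2 guide RNAs and bred over C57BL/6NCrl before heterozygotes were intercrossed. Donors were superovulated C57Bl6/J or C57BL/6NCrl females, with the strain given as C57BL6/J for each library, and eggs were taken 12 to 14 h after hCG, the hormone that triggers ovulation. The sources used here give no ages, no ends of the deletion and nothing on whether WT eggs came from littermates. The knockout is constitutive, so cells that surround the egg in the ovary carry it too.

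An MII egg is the ovulated, mature form of the oocyte. It is arrested in its second meiotic metaphase until sperm arrive, does not transcribe its genome, and lives on RNA stored while the oocyte grew. Mouse oocytes process double-stranded RNA into small interfering RNAs (endo-siRNAs) with an oocyte form of Dicer, and these lower the level of matching mRNAs. Sirena1 is an abundant lncRNA of the mouse oocyte that carries a stretch derived from the Elob gene in antisense orientation, and Elob is among the described targets of oocyte endo-siRNAs.

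The start of the Sirena1 gene is shown because the promoter is the part that the knockout removed. Sirena1, listed among the deposited counts as C86187 (ENSMUSG00000110001), lies on the minus strand of chromosome 7, from 46967710 to 46975911 in GRCm38.p6, the build named in the submitters' processing notes. The RefSeq promoter window of the same build is chr7:46975862-46976161, with 250 bases before the start in lower case and the 50 transcribed bases after it in capitals:
Sirena1 promoter: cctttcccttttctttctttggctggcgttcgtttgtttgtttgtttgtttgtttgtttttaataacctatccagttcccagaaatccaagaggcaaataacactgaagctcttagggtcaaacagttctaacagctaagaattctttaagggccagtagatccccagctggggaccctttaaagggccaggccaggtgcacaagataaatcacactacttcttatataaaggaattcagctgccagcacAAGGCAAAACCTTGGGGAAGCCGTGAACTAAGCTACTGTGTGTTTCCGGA
The letters TATAAA occur 1 time on the printed strand, beginning 25 bases before the start, and 0 times on the other strand. Of 32851 RefSeq promoters of this length, 4473 (13.6%) hold these letters on either strand, so the match is a description of the window.

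Total counts in the egg libraries ran from 30867614 to 40602239, and the detection limit of 3 counts corresponds to 0.0787 to 0.105 CPM (counts scaled to library size, here also with TMM factors that adjust for composition). Reads carry no molecular identifiers, so this limit covers counting error alone. The leading principal component of log2 CPM over all 13 libraries held 65.8% of the variance and separated the stages. On it, Null replicate 4 stood at 25.7, while the other 3 Null egg libraries stood at 65.8 to 81.4, the WT egg libraries at 70.1 to 78.7 and the GV libraries at -108 to -64.4. In the eggs alone, Null replicate 4 stood apart on the leading component (27.1% of variance, 73.2 against -18.8 to -6.26) and Null replicate 1 on the next one (19.5%, 60.3 against -16.8 to 4.88).

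**Figure D1:**
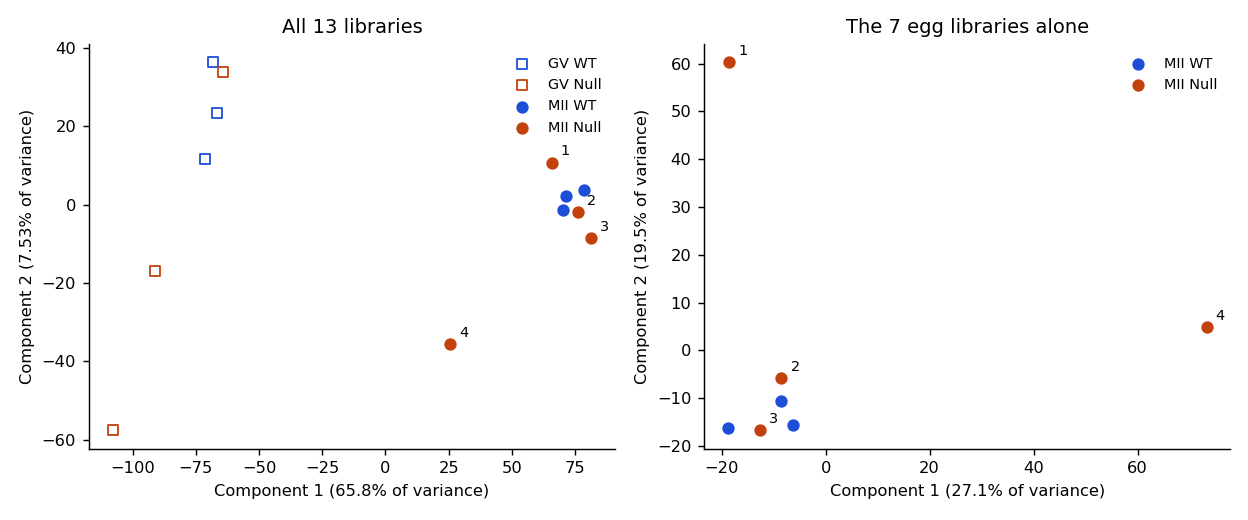
Principal components of log2 CPM over all 13 libraries (left) and over the 7 egg libraries (right), with the share of variance on each axis. Open squares are GV oocytes, filled circles are MII eggs, blue is WT and orange is Null, and the numbers are the Null egg replicates. Null replicate 4 lies at 25.7 on component 1 of the left panel, and replicates 4 and 1 lie apart from the other 5 libraries in the right panel.

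Genes that set Null replicate 4 apart included RNAs of GV oocytes and of the cells around the egg. A total of 69 genes of at least 1 CPM in this library lay over 4-fold above each of the other 6 egg libraries, against 0 to 2 genes in any other library. Rpl39, a ribosomal protein mRNA, stood at 10.5 CPM in it and at no more than 1.81 CPM in the others. The summed level of 4 mRNAs that fall at maturation (Ccnd2, Rpl39, Rps13 and Atp5mpl) was 24.8 CPM in it. The sum was 1.91 to 4.98 CPM in the other Null egg libraries, 2.89 to 4.70 CPM in WT eggs and 289 to 414 CPM in GV libraries. Ccnd2, Rpl39 and Rps13 are among the 69 genes, so this sum is not separate support. Atp5mpl, which is not, stood at 1.90 CPM in Null replicate 4 and at 0.381 to 1.18 CPM in the other egg libraries.

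Some markers of cumulus and granulosa cells, which enclose the oocyte, moved with the same library. The 20 markers of this kind that were under 1 CPM in WT eggs summed to 16.8 CPM in Null replicate 4, to 0.595 to 1.11 CPM in the other Null libraries and to 0.965 to 1.32 CPM in WT libraries. Vcan, a matrix proteoglycan of these cells, stood at 6.06 CPM there against at most 0.508 CPM elsewhere, and Amh, a defining granulosa marker, at 0.249 CPM against 0 in the other 6. Tnfaip6 and Areg were at 0 in all 7 libraries, and the sum over all 27 markers was 39.5 to 61.9 CPM in Null against 46.4 to 51.6 CPM in WT eggs. The 7 markers of at least 1 CPM in WT eggs summed to 45.1 CPM in Null replicate 4. Their sum was 38.9 to 43.5 CPM in the other Null and 45.5 to 50.3 CPM in WT libraries. Cyp19a1, at 27.9 to 33.2 CPM in Null against 33.6 to 38.8 CPM in WT eggs, was the single marker with the highest CPM in each library. Its lowest value was in Null replicate 4. Fshr stood at 0.963 CPM in that library, at 0.350 to 0.560 CPM in the other Null and at 1.16 to 1.69 CPM in WT libraries. In such pools, fewer cells of a type and less RNA per cell cannot be told apart. The 18 oocyte markers, such as Gdf9 and the zona pellucida genes, summed to 12627 to 13779 CPM in Null against 12312 to 14042 CPM in WT eggs, and none of the 17 tested passed.

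Null replicate 1 stood apart through other genes. Among genes of at least 5 CPM, 75 lay over 1.5-fold above every other egg library, against 58 in Null replicate 4 and 0 to 7 in the remaining 5. Tmsb10, an actin-binding peptide mRNA, stood at 189 CPM in it and at most 104 CPM elsewhere, and Cox8a, a small subunit of cytochrome c oxidase, at 59.4 CPM against at most 31.3 CPM.

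Sirena1 itself was strongly reduced in Null eggs, though still well above the detection limit. Its level was 44.8, 39.6, 45.0 and 35.9 CPM in the 4 Null libraries and 4271, 4693 and 4595 CPM in the 3 WT libraries. The groups were far apart, and the level of Sirena1 thus matched the label of every library. The log2 fold change was -6.77 (SE 0.09, edgeR quasi-likelihood test, adjusted p = 3.43e-19), a residual level of 0.00797 to 0.0105 of WT as a 95% interval. In WT eggs Sirena1 ranked 7 among all genes by CPM, which favours long transcripts, and in Null eggs it ranked 4158.

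Across the transcriptome few other RNAs differed. Of 20143 genes tested, 11 passed an adjusted p of 0.05 (0.0546%), 3 of them higher in Null (0.0149%) and 8 lower (0.0397%). Those described here are Elob, Dhcr7 and the pseudogene Gm11598 on the higher side, and Sirena1, mt-Nd3, Gm28438, mt-Tr, Strap, Gm19248 and Gm19276 on the lower side. In each of these 10 the Null and WT libraries did not overlap, which also held for 1223 of all tested genes (6.07%), and 1280 genes (6.35%) had an unadjusted p under 0.05. DESeq2 called 41 of 19355 genes (0.212%), 22 higher (0.114%) and 19 lower (0.0982%), among them all 10 just named. Without a filter on low counts edgeR called 290. The count fell to 7 without Null replicate 1, to 4 without WT replicate 1 or 2, and to 6 without WT replicate 3. Sirena1, Elob and mt-Nd3 passed in every alternative that gave a value for them.

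**Figure D2:**
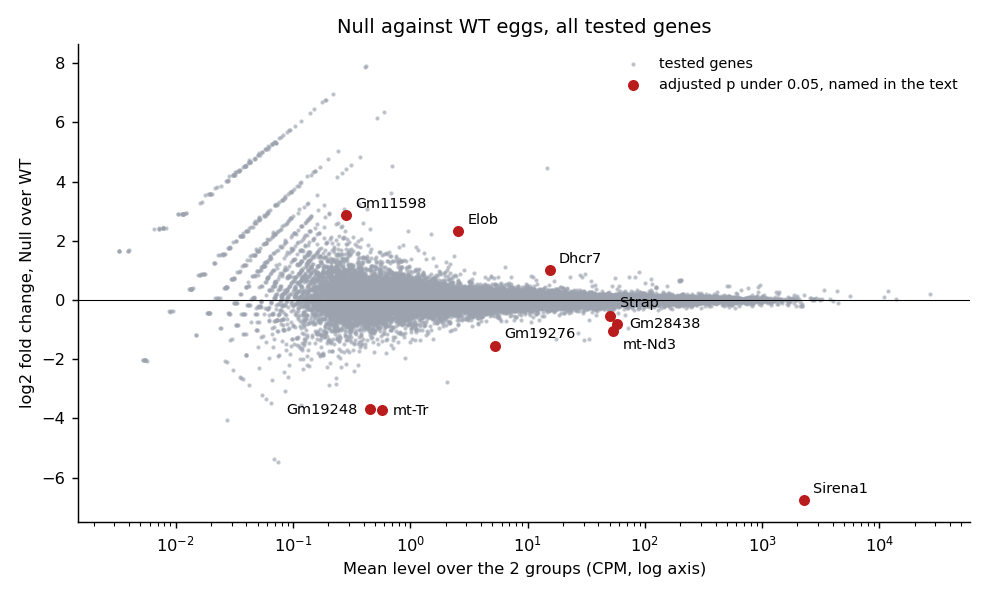
Log2 fold change of Null over WT eggs (vertical axis) against the mean CPM of the 2 groups (horizontal, log axis) for the tested genes, with the 10 named genes past an adjusted p of 0.05 in red. Sirena1 lies alone at -6.77, and the wide fan at the left is made of genes near the detection limit.

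The data were tight enough to bound most abundant mRNAs. Of 9947 genes with at least 5 CPM in 1 group, 9874 (99.3%) had a 95% interval of the Null to WT ratio lying wholly within 2-fold in either direction, and 9131 (91.8%) within 1.5-fold. The intervals are those of single genes, not adjusted over genes. Estimates beyond 2-fold were found for 11 genes of this level, 3 higher and 8 lower, of which some did not pass. Over all tested genes, 14287 (70.9%) were bounded within 2-fold, so a change of that size in scarcer mRNAs was often not detectable at this depth.

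**Figure D3:**
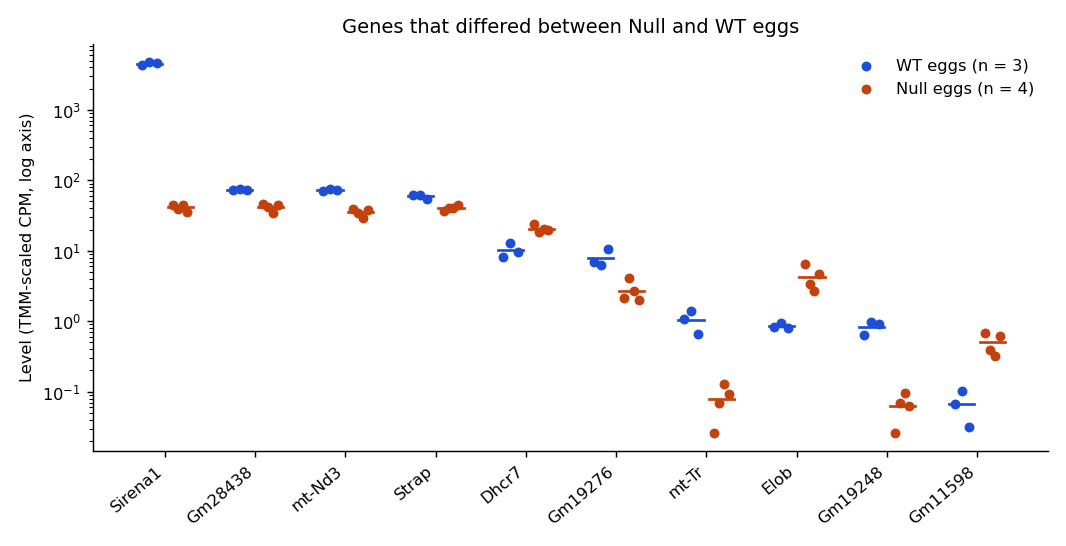
TMM-scaled CPM (log axis) of the 10 named genes in each of the 3 WT (blue) and 4 Null (orange) egg libraries, with a bar at the group mean. The points of the 2 groups do not overlap in any of these genes, and Elob, Dhcr7 and Gm11598 are the ones higher in Null.

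Elob, which encodes Elongin B, rose in Null eggs. Elongin B pairs with Elongin C in the Elongin transcription factor and in cullin ubiquitin ligases. Elob (chromosome 17, 23824740 to 23829109) stood at 6.401, 3.36, 2.70 and 4.63 CPM in the Null libraries and at 0.828, 0.931 and 0.794 CPM in the WT libraries. The lowest Null library lay above the highest WT library, and Null replicate 1 was the highest. The log2 fold change was 2.34 (SE 0.28, adjusted p = 0.00141), with a 95% interval of 3.36- to 7.59-fold. It was 2.07 without Null replicate 1 (adjusted p = 0.000597) and 2.32 without Null replicate 4 (adjusted p = 0.00545).

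The rise was seen on an mRNA that is scarce in eggs, at 25, 27 and 25 counts in the WT libraries. In GV oocytes Elob stood at 22.5 ± 3.47 CPM in Null against 5.51 ± 0.849 CPM in WT (SD, n = 3 each). The log2 fold change at that stage was 2.03, and the difference between the stages, eggs minus GV, was 0.31 (SE 0.36), which did not pass (edgeR adjusted p = 0.999).

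The pseudogene Gm11598 (chromosome 11, 100243260 to 100243693) also rose. It held 26, 11, 10 and 20 counts in Null libraries and 2, 3 and 1 in WT libraries. Its log2 fold change was 2.87 (SE 0.46, adjusted p = 0.0157), and the call was lost in the fit of the 7 egg libraries alone (adjusted p = 0.349), without Null replicate 1 (adjusted p = 0.0503) and without any WT replicate. Elob counts per Gm11598 count were 7.45 to 9.38 in Null eggs and 9 to 25 in WT eggs, where Gm11598 held 1 to 3 counts. In GV libraries they were 7.27 to 9.56. Elob and Gm11598 may share reads, which was not tested, so Gm11598 may not be a separate result. The treatment of reads with several matches is unknown from the sources used here, so the values of both are uncertain.

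Elobl, a relative of Elob on chromosome 11 that is annotated as protein-coding, is the gene of the pair with far more counts in eggs. It stood at 5110.5, 3283, 2700.0 and 3832 CPM in Null against at 3353, 3238 and 2328 CPM in WT libraries. The groups overlapped, and the log2 fold change of 0.33 (SE 0.18, 95% interval -0.07 to 0.72) did not pass (edgeR adjusted p = 0.837). Elobl passed in 1 alternative, the fit without a filter on low counts. For each Elob count there were 798 to 999.6 Elobl counts in Null eggs and 2933 to 4051 in WT eggs, a ratio of counts that is not scaled to length.

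No other described endo-siRNA target passed. Of the 8 listed, Elob was the only 1 called. The other 7 were bounded within 2-fold, and the list had 4 members above 0 and 4 below, with a median log2 fold change of -0.0019 (0.0142 over all tested genes). Without Null replicate 1, 6 lay above 0 and the median was 0.072. Ppp4r1, a phosphatase regulator, stood at 16.4 ± 2.23 CPM in Null (n = 4) and 13.9 ± 0.715 CPM in WT (n = 3), with a log2 fold change of 0.24 (95% interval -0.01 to 0.49). Kif4, a chromosome-binding kinesin, stood at 325 ± 33.98 and 327 ± 30.8 CPM, and Optn, an autophagy receptor, at 16.6 ± 2.495 and 16.9 ± 0.422 CPM.

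Neither the small RNA machinery nor the partners of Elongin B held another call. Of 13 Dicer, Argonaute and microRNA processing genes, 11 were bounded within 2-fold and the median was 0.0256, with Ago2, an Argonaute that cuts its targets, at 28.5 ± 3.97 CPM in Null against 25.8 ± 1.93 CPM in WT eggs. Of 28 Elongin and cullin ligase genes, 24 were bounded within 2-fold, 13 lay above 0 and 15 below, and the median was -0.0032 (18 above 0 and 0.034 without Null replicate 1). Eloc, the Elongin C subunit, stood at 64.1 ± 10.7 and 58.2 ± 2.98 CPM, and Cul2, a cullin that works with both, at 22.4 ± 3.75 and 23.4 ± 1.44 CPM.

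Among mitochondrially encoded RNAs, a pair of neighbours fell. The mitochondrial genome is transcribed as long precursors from which tRNAs, rRNAs and mRNAs are cut. mt-Nd3, which encodes part of respiratory complex I, stood at 38.9, 34.4, 29.04 and 37.3 CPM in Null against at 70.3, 74.6 and 73.6 CPM in WT libraries. Every Null library lay below every WT library, and the log2 fold change was -1.06 (SE 0.12, adjusted p = 0.000722), a ratio of 0.402 to 0.572 as a 95% interval. It was -1.11 without Null replicate 1 and -1.07 without Null replicate 4, and passed in both cases.

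mt-Tr, the mitochondrial arginine tRNA gene that follows mt-Nd3, held 1, 2, 4 and 3 counts in Null libraries and 33, 41 and 21 in WT libraries. Its log2 fold change was -3.71 (SE 0.58, adjusted p = 0.0137). Among the fits that leave out 1 library, the call was lost without Null replicate 1 or 2 and without WT replicate 1 or 2, with an adjusted p of up to 0.211 over all alternatives. In GV oocytes mt-Tr held 0, 1 and 2 counts in Null and 15, 8 and 9 in WT libraries (log2 fold change -3.12, edgeR adjusted p = 0.492).

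Gm28438 is annotated as a separate gene whose counts moved with those of mt-Nd3. It stood at 46.1, 42.4, 34.5 and 44.3 CPM in Null against at 72.1, 75.3 and 73.5 CPM in WT libraries (log2 fold change -0.81, SE 0.12, adjusted p = 0.0086). mt-Nd3 counts per Gm28438 count were 0.812 to 0.843 in Null and 0.975 to 1.00 in WT eggs. In GV oocytes they were 0.852 to 0.878 in Null and 0.982 to 1.00 in WT. Counts of the loci were thus nearly equal in WT, while Gm28438 held more in every Null library. The cause of this difference was not tested. The loci may share reads, so they count as 1 uncertain result. The Gm28438 call was lost without any WT replicate. In GV oocytes its log2 fold change was -1.01 (edgeR adjusted p = 0.00263).

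The neighbours on either side did not pass in this fit. mt-Co3, a subunit of complex IV that precedes mt-Nd3, stood at 249.97, 172, 240 and 288 CPM in Null against 126, 163 and 166 CPM in WT libraries, without overlap (log2 fold change 0.65, SE 0.17, edgeR adjusted p = 0.49). DESeq2 called mt-Co3 higher in Null (DESeq2 adjusted p = 0.00841), and edgeR did so without Null replicate 2 or without a filter on low counts. mt-Tg, the glycine tRNA between them, held 1 to 10 counts per egg library and was not tested. mt-Nd4l and mt-Nd4, the complex I subunits that follow mt-Tr, had log2 fold changes of 0.29 (SE 0.15) and 0.22 (SE 0.16).

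**Figure D4:**
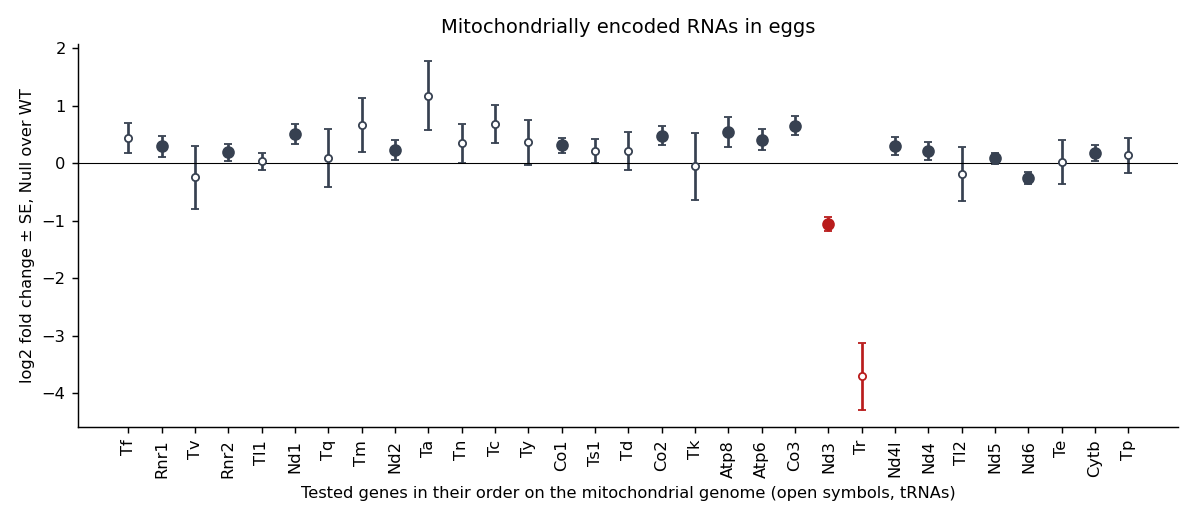
Log2 fold change of Null over WT eggs with its standard error for the tested mitochondrially encoded genes, in their textbook order along the mitochondrial genome (the prefix mt- is left off). Open symbols are tRNA genes and red marks an adjusted p under 0.05. Nd3 at -1.06 and Tr at -3.71 are adjacent, while Co3, Nd4l and Nd4 lie above 0.

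The other mitochondrial mRNAs lay mostly above 0. Of 13 mRNAs, 11 were above 0 and 2 below, with a median log2 fold change of 0.29, and 1 passed, mt-Nd3. Without a filter on low counts mt-Co1, mt-Co2, mt-Nd1, mt-Atp6 and mt-Atp8 also passed, each higher in Null, as did mt-Co3. The median was 0.18 without Null replicate 1 and 0.23 without Null replicate 4. mt-Nd6, a complex I subunit on the other strand, stood at 125 ± 11.1 CPM in Null against 151 ± 22.4 CPM in WT eggs. Both rRNAs (median 0.24) and 12 of 16 tested tRNAs (median 0.17) lay above 0.

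Summed over the 13 mRNAs, mitochondrial transcripts took 1.24%, 0.944%, 1.19% and 1.41% of counts in the Null libraries and 0.896%, 1.04% and 1.03% in the WT libraries. The means were 1.19 ± 0.191% (SD, n = 4) and 0.990 ± 0.0813% (SD, n = 3), a ratio of 1.21. Null replicate 2 lay within the WT range, and a two-sided exact permutation test gave p = 0.171 over 35 arrangements. The test doubled the smaller tail, so the smallest p it could give was 0.0571 and it could not pass 0.05.

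Nuclear genes for mitochondria had no called member. Of 77 tested genes for the nuclear-encoded respiratory chain, 60 lay above 0 and the median was 0.16, which became 0.054 without Null replicate 1 and 0.048 without Null replicate 4. Cox7a2l, a factor of respiratory supercomplexes, stood at 9.65 ± 1.42 CPM in Null against 7.06 ± 0.934 CPM in WT eggs (edgeR adjusted p = 0.516). Genes of mitochondrial gene expression and DNA maintenance (31 tested, median 0.053) and of mitochondrial distribution and dynamics (26 tested, median 0.029) were close to 0. Mul1, a mitochondrial ubiquitin ligase, stood at 8.49 ± 0.315 and 6.50 ± 0.909 CPM, and Dnm1l, the fission GTPase, at 239 ± 16.5 and 255 ± 7.38 CPM. Ppargc1a, a coactivator of mitochondrial biogenesis genes, stood at 0.672 ± 0.333 CPM in Null against 1.73 ± 0.881 CPM in WT eggs, without overlap (edgeR adjusted p = 0.572). Of 22 genes of the mitochondrial and integrated stress response none passed (median -0.00020), with Atf4, its transcription factor, at 242 ± 26.9 and 212 ± 18.4 CPM.

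Dhcr7, the reductase that makes cholesterol from 7-dehydrocholesterol, rose in Null eggs. It lies on the same chromosome as Sirena1, on chromosome 7 from 143823167 to 143848410. Its level was 23.7, 18.2, 20.4 and 19.9 CPM in the Null libraries and 8.18, 12.8 and 9.68 CPM in the WT libraries, with no overlap. The log2 fold change was 1.01 (SE 0.15, adjusted p = 0.0086), with a 95% interval of 1.62- to 2.51-fold. The call held without Null replicate 1 (adjusted p = 0.0242) and without Null replicate 4 (adjusted p = 0.0156), and was lost without WT replicate 1 or 3 (highest adjusted p 0.112).

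In GV oocytes Dhcr7 stood at 17.9 ± 3.11 CPM in Null against 15.5 ± 1.23 CPM in WT (SD, n = 3 each; log2 fold change 0.21, edgeR adjusted p = 0.862). The difference between the stages was 0.81 (SE 0.21) and did not pass over all genes (unadjusted p = 0.00136, edgeR adjusted p = 0.999).

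No other gene of the pathway passed. Of 21 cholesterol synthesis genes, 15 were bounded within 2-fold, 12 lay above 0 and 9 below, and the median log2 fold change was 0.047. Sc5d, which makes the substrate of Dhcr7, stood at 66.8 ± 6.69 CPM in Null against 71.2 ± 3.32 CPM in WT eggs. Idi1, an isomerase of the isoprenoid steps, stood at 34.04 ± 0.323 CPM in Null against 42.8 ± 3.77 CPM in WT eggs, without overlap (log2 fold change -0.33, edgeR adjusted p = 0.429). None of 15 genes for sterol sensing and uptake passed (median 0.023), with Srebf2, the main activator of the pathway, at 20.6 ± 3.64 and 20.4 ± 1.05 CPM.

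Strap, a WD-repeat protein of the SMN complex that assembles spliceosomal particles, fell. It lies on chromosome 6 from 137735082 to 137751930 and stood at 37.2, 40.2, 40.8 and 44.6 CPM in Null against at 61.7, 61.7 and 54.3 CPM in WT libraries. The change was modest and without overlap, at a log2 fold change of -0.54 (SE 0.09, adjusted p = 0.0172) or a ratio of 0.604 to 0.781 as a 95% interval. It did not pass in the fit of the 7 egg libraries alone (adjusted p = 0.0522), without any of Null replicates 1 to 3, or without WT replicate 1 or 2. In GV oocytes its level was 37.4 ± 3.29 CPM in Null against 47.4 ± 3.03 CPM in WT (SD, n = 3 each).

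No other member of the SMN complex passed. Of 10 tested, 9 were bounded within 2-fold, 6 lay above 0 and 4 below, and the median was 0.023 (4 above 0 and -0.025 without Null replicate 1). Smn1, the core subunit, stood at 139 ± 23.2 CPM in Null against 130 ± 15.96 CPM in WT eggs. Ddx20, its helicase, stood at 10.2 ± 1.15 and 12.0 ± 1.25 CPM, and Prmt5, the methyltransferase that modifies Sm proteins, at 15.1 ± 1.81 and 14.1 ± 0.599 CPM.

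Of the noncoding loci that fell, 1 lies beside Sirena1. Gm19248, a pseudogene of 471 bp from 46967147 to 46967617, lies just past the 3′ end of Sirena1. It held 1, 2, 3 and 2 counts in Null libraries and 19, 28 and 29 in WT libraries (log2 fold change -3.68, SE 0.57, adjusted p = 0.0131). Among the fits that leave out 1 library, the call was lost without Null replicate 1 and without any 1 of the WT replicates (highest adjusted p 0.117 over the alternatives).

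Gm19276, an lncRNA on chromosome 15 from 10829051 to 10832713, stood at 2.13, 4.13, 2.67 and 1.99 CPM in Null against at 6.85, 6.27 and 10.6 CPM in WT libraries. Its log2 fold change was -1.55 (SE 0.26, adjusted p = 0.0326). This was the call that most alternatives removed: without Null replicate 4 the adjusted p was 0.103, and it was also lost without Null replicate 1 or 3, without any WT replicate and in the fit of eggs alone. In GV oocytes it stood at 2.63 ± 0.67 CPM in Null against 3.74 ± 0.815 CPM in WT (SD, n = 3 each), and the difference between the stages was -1.04 (SE 0.39, edgeR adjusted p = 0.999).

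Leaving out Null replicate 4, the library nearest to GV oocytes, gave 12 called genes, 10 of them shared with the 11. Gained were Gm15446 and Gm47601, which were chosen for mention after their values were seen. Gm15446 stood at 14.8, 11.1, 14.2 and 36.3 CPM in the Null libraries and at 45.7, 60.1 and 37.5 CPM in the WT libraries. Gm47601 was at 0, 0, 0 and 2.11 CPM in Null against at 2.88, 2.83 and 5.05 CPM in WT libraries, so that Null replicate 4 differed from its group in both.

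Below the threshold, 12 genes of at least 5 CPM are given as values. They had the smallest p among genes without overlap whose symbol is not a Gm number or clone name. Nhs, a regulator of actin remodelling, stood at 24.2, 26.9, 31.7 and 19.4 CPM in Null against 45.8, 39.05 and 37.9 CPM in WT libraries (edgeR adjusted p = 0.14). Adgrl2, an adhesion receptor, stood at 11.1 ± 1.19 CPM in Null against 16.3 ± 0.424 CPM in WT eggs (edgeR adjusted p = 0.102). Edn1, the vasoactive peptide endothelin-1, stood at 8.95 ± 0.891 and 13.3 ± 1.03 CPM.

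The remaining genes of that set had log2 fold changes of similar size. Zfhx4 (-0.73), Kcnh5 (-0.56), Uprt (-0.54), Nrcam (-0.45) and Arhgap20 (-0.43) were lower in every Null library than in any WT library. Kyat3, a kynurenine aminotransferase, was higher, at 29.4 ± 6.02 CPM in Null against 17.02 ± 4.24 CPM in WT eggs, as were Mitf, a bHLH transcription factor (14.1 ± 1.55 and 9.75 ± 0.197 CPM), and the double homeobox copies Duxbl2 and Duxbl3. The last pair held nearly the same values (143 and 105 CPM each), as copies that share reads would. DESeq2 called these genes with the exception of Kcnh5 (DESeq2 adjusted p = 0.0767).

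The machinery of the egg's own state had no called member. Of 42 genes for metaphase II arrest and cyclin B control, 40 were bounded within 2-fold, 26 lay above 0, and the median log2 fold change was 0.022. Without Null replicate 1, 20 lay above 0 and the median was -0.0066. Ensa, an inhibitor of the phosphatase that opposes Cdk1, stood at 8.52 ± 0.998 CPM in Null against 6.22 ± 0.620 CPM in WT eggs, without overlap (edgeR adjusted p = 0.571). Cdk1, the kinase that drives metaphase, stood at 20.5 ± 1.29 and 17.5 ± 2.12 CPM.

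Spindle, checkpoint and cohesion genes lay slightly on the lower side without any call. Of 41 tested, 6 lay above 0 and 35 below, with a median of -0.042. Without Null replicate 4 the count above 0 was 18 and the median -0.011, and without Null replicate 1 they were 15 and -0.035. All 41 were bounded within 2-fold, with Bub1b, a checkpoint kinase, at 1288 ± 75.6 CPM in Null against 1420.0 ± 129 CPM in WT eggs.

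Genes for fertilization and for the early embryo showed no called member either. In 22 genes of sperm-egg interaction and egg activation the median was 0.010, and Cd9, the egg tetraspanin needed for fusion, stood at 19.02 ± 3.06 CPM in Null against 21.9 ± 2.35 CPM in WT eggs. In 30 genes of the subcortical complex and other maternal-effect genes the median was -0.00048. Ooep stood at 1437 ± 214 and 1202.5 ± 85.2 CPM. Khdc3 stood at 1.08 to 1.495 CPM in 3 Null libraries, 7.52 CPM in Null replicate 4 and 0.826 to 1.41 CPM in WT libraries. Of 38 tested members of oocyte gene families, 18 lay above 0, with a median of -0.014 (11 and -0.050 without Null replicate 1).

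RNA turnover and storage factors were likewise without a call. Deadenylation and decapping genes (27 tested) had a median of 0.032 and genes of mRNA storage and translational control (28 tested) one of 0.025. Msi2, a regulator of translation, stood at 70.8, 71.5, 60.9 and 73.1 CPM in Null against at 56.7, 44.9 and 49.1 CPM in WT libraries, without overlap (log2 fold change 0.46, edgeR adjusted p = 0.368). Dis3l2, an exonuclease for uridylated RNA, stood at 11.4 ± 0.975 and 8.52 ± 1.52 CPM.

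Genes that sense double-stranded RNA or respond to interferon did not pass. Of 26 tested, 14 lay above 0 and 12 below, with a median of 0.0091 (10 above 0 and -0.035 without Null replicate 1). Irf3, a transcription factor of that response, stood at 4.36, 4.13, 3.91 and 4.26 CPM in Null against at 6.95, 6.17 and 5.21 CPM in WT libraries (log2 fold change -0.55, edgeR adjusted p = 0.495). Oas3, an oligoadenylate synthetase that double-stranded RNA activates, stood at 7.35 ± 0.629 and 8.58 ± 0.899 CPM.

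Cytosolic ribosomal protein mRNAs lay above 0 in 72 of 86 tested genes, with a median log2 fold change of 0.25 and no call. Their summed level was 1934, 1412, 1368 and 1722 CPM in the Null libraries and 1566, 1544 and 1451 CPM in the WT libraries, so that Null replicates 1 and 4 lay above the WT range and replicates 2 and 3 below it. The median was 0.15 without Null replicate 1 and 0.12 without Null replicate 4, the libraries described above as standing apart. The part of these libraries in the medians of the ribosomal and respiratory chain lists was not tested.

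**Figure D5:**
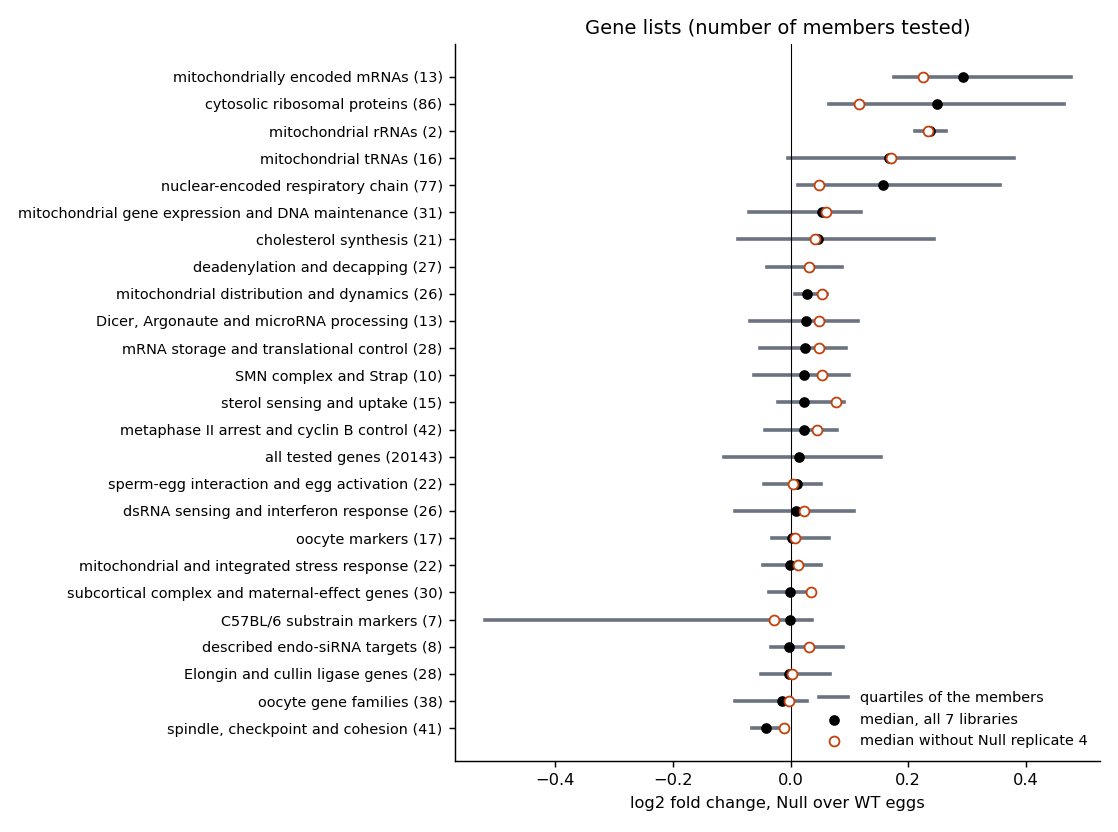
Median log2 fold change of Null over WT eggs for gene lists (filled circles) with the quartiles of their members (bars) and the median without Null replicate 4 (open circles), beside all tested genes. The number of members tested follows each name. Medians of the ribosomal and respiratory chain lists move towards 0 without that library, and lists of markers of other cell types and of mRNAs that fall at maturation are left off.

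Other highly abundant RNAs of WT eggs were the most abundant in Null eggs too. mt-Rnr2 and mt-Rnr1, the mitochondrial rRNAs, Zbed3, Spin1, Mdm4, Tet3, mt-Co1 and the locus CT010467.1 held the top 8 ranks in Null eggs. Zbed3, which encodes a partner of the subcortical complex, stood at 14082 ± 1680 CPM in Null against 13755 ± 731 CPM in WT eggs. Spin1, a histone reader of oocytes, stood at 11341 ± 437 and 10591 ± 79.1 CPM. Tet3, a 5-methylcytosine dioxygenase, stood at 3963 ± 365 and 4040 ± 115 CPM, and none of these 8 passed. Without a filter on low counts mt-Rnr1 and mt-Co1 did pass.

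Substrain markers bear on the C57Bl6/J and C57BL/6NCrl donors named in the labels. Of 7 tested, none passed, and 3 had an unadjusted p under 0.05, against 1280 of all 20143 tested genes (6.35%). Entpd4 stood at 1.21, 1.75, 1.72 and 1.34 CPM in Null against at 2.58, 2.86 and 3.62 CPM in WT libraries, without overlap (log2 fold change -1.01, edgeR adjusted p = 0.226), and its near copy Entpd4b held almost the same counts. DESeq2 called both (DESeq2 adjusted p = 0.0350 each), which as near copies may not be separate results. Wdfy1 stood at 5.43 ± 0.776 and 3.84 ± 1.24 CPM. Genotype and any residual difference of substrain cannot be told apart in these groups.

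Between the stages, 1 of 20143 genes (0.00496%) differed in its response to the knockout. Zfp385b, a zinc finger gene, stood at 18.7, 15.4, 19.5 and 17.2 CPM in Null against at 18.5, 21.2 and 22.4 CPM in WT eggs, which overlap. In GV oocytes it stood at 15.5 ± 0.413 CPM in Null against 8.47 ± 0.721 CPM in WT (SD, n = 3 each). The difference of log2 fold changes, eggs minus GV, was -1.09 (SE 0.16, edgeR adjusted p = 0.0406), from -0.22 in eggs and 0.87 in GV oocytes. It did not pass with RLE scaling, with the replicate block, or when any egg library other than WT replicate 1 was left out.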

How the data were processed

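Poly(A) RNA from pools of 25 cells was sequenced as 65 bp single-end reads after NuGEN Ovation amplification, per the labels' protocols. The authors deposited raw counts per gene of Ensembl release 93 for 54232 genes. The submitters' processing notes name STAR 2.5.3a, bedtools 2.26.0 and GRCm38.p6. Which program counted reads, with what strand setting, and how it treated reads with several matches is not given in the sources used here. Per the labels, 0.2 pg of Renilla RNA was added to each sample, and the table holds 0 lines that name no gene, so levels are relative.

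Groups came from the labels. All 13 libraries were fitted in 1 model of 4 groups with edgeR 4.0.16 in R 4.3.3 (filterByExpr, TMM, glmQLFit robust, glmQLFTest, two-sided), which tested 20143 genes, with Benjamini-Hochberg adjustment over all of them and a threshold of 0.05. Levels are TMM-scaled CPM as mean ± SD. The standard error of a log2 fold change was taken as its absolute value over the square root of the F statistic. The 95% intervals were built from it with t quantiles, so both are approximate. DESeq2 1.42.0, RLE scaling, other filters, the 7 egg libraries alone, a replicate block and each library left out were the alternatives. The test was checked on simulated counts. No 2 libraries agreed within sampling noise (chi-square per degree of freedom 7.78 to 28.4 within egg groups).

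The comparison, gene lists and rules were chosen with earlier results of these data known. Named are genes past the threshold, the 12 next by p and the 10 most abundant in WT eggs. The 12 had at least 5 CPM, no overlap and a symbol that is not a Gm number or clone name. Up to 3 members of each of 27 lists were also named by p. So were all members of lists of 13 or fewer that hold a called gene. Sc5d, Srebf2, Eloc, Cul2 and genes of single libraries were added for their role. Symbols matched 54079 gene IDs. 1 gene past the threshold and 1 of the most abundant are not reported here.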

Additional observations from a re-analysis of the deposited data

Results flagged for a closer look

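In 9 of 125 named genes, and in 1 summed list, 1 of the 4 Null egg libraries lay farther from the others than a Dixon test at 95% allows, which chance does in about 1 in 20 groups. Over 9804 egg genes of at least 5 CPM, 614 (6.26%) were of this kind, with the outlying library being replicate 1 in 307, replicate 4 in 182, replicate 3 in 72 and replicate 2 in 53.

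Null replicate 4 was the outlying library in most of the named ones. It was high for Rpl39 (10.5 CPM, others 0.604 to 1.81), Rps13 (8.98 CPM, others 0.667 to 1.76), Khdc3 (7.52 CPM, others 1.08 to 1.495) and Trmt10c, a subunit of mitochondrial RNase P (17.4 CPM, others 13.3 to 13.4). The summed level of the 4 mRNAs that fall at maturation, which include Rpl39 and Rps13, was 24.8 CPM in it and 1.91 to 4.98 CPM in the others. It was low for Srebf1 (71.5 CPM, others 86.1 to 87.5), Gemin8 (24.4 CPM, others 28.4 to 29.01) and Edn1 (7.61 CPM, others 9.37 to 9.42).

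Has2, a hyaluronan synthase of cumulus cells, was high in Null replicate 1 (1.39 CPM, others 0.770 to 0.794). Mul1 was high in Null replicate 2 (8.96 CPM, others 8.32 to 8.36).

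Zfp385b passed the interaction contrast of the edgeR fit between the stages, with a difference of log2 fold changes of -1.09. The call was lost with RLE scaling, with the replicate block and without any egg library other than WT replicate 1.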

How the results depend on the processing

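The count of 11 called genes, 3 higher and 8 lower, was the same in number with RLE scaling. It was 290 with no filter on low counts (232 higher, 58 lower), 41 with DESeq2 (22 and 19), and 8 in the 7 egg libraries alone. Dropping the filter lets scarce genes enter, but abundant genes not called with it also passed, among them Elobl, mt-Rnr1 and mt-Co1. A filter of 5 CPM left 8, of which 1 was higher. With the replicate block it was 12, of which 5 were higher. The correlations of same-numbered Null and WT libraries were 0.049, -0.036 and 0.207, and those of differently numbered ones -0.173 to 0.206. So few values cannot decide whether the numbers pair samples. mt-Tr, Gm19248 and Gm11598 did not pass with the block. Leaving out each library gave 4 to 12 calls, with 1 to 6 higher and 2 to 9 lower: 7 without Null replicate 1 (4 lower), 4 without WT replicate 1 (1 higher) or 2 (2 lower), 6 without WT replicate 3 (1 higher), and 12 without Null replicate 2 (6 higher). For the difference of the genotype effect between stages, 1 gene passed, against 0 with RLE scaling or the block, 157 with no filter, 2 with DESeq2 and 0 to 1 with a library left out, and the egg libraries alone can give no value. The ratio of mitochondrial shares, 1.21, was 1.22 with another denominator and 1.14 to 1.29 with a library left out. No called gene changed sign. Without Null replicate 4 the log2 fold changes of Rpl39 (1.49) and Rps13 (1.20), which were not called, were -0.060 and -0.25, and the median of the list of mRNAs that fall at maturation (1.25) was -0.16. Several list medians close to 0 also changed sign without Null replicate 1 or 4. Depth limits what can be said of genes under 5 CPM, and calls that rest on few counts (mt-Tr, Gm19248, Gm11598) depended on single libraries. The causes of these shifts were not tested.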

Other observations

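Further RNAs that differed in 1 library or by 1 tool are given as values, chosen after their values were seen. Gm26917, a noncoding locus, stood at 105.8 CPM in Null replicate 4 and at 0.286 to 3.05 CPM in the other 6 egg libraries. Kctd14 was at 3.26 CPM in that library and at 0 in the other 6. DESeq2 called Kctd14 (DESeq2 adjusted p = 2.35e-12), and edgeR did not (edgeR adjusted p = 0.827).

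The pseudogene Mid1-ps1 stood at 91.8 CPM in WT replicate 2 and at 13.2 to 20.1 CPM in the other 6 egg libraries. Gm21742 stood at 53.8 CPM in the same WT library and at 8.37 to 11.2 CPM in the others.

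The homeobox gene Cphx1 stood at 301, 261, 257 and 178 CPM in the Null libraries and at 184, 181 and 109 CPM in the WT libraries. The groups overlapped, edgeR did not call it (adjusted p = 0.581), and DESeq2 did (DESeq2 adjusted p = 0.0200), as it did the copies Cphx2 and Cphx3, which held nearly the same values.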
